A study of Mus musculus with 8 samples.

Results

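Astrocytes and oligodendrocytes are the main glia of the brain, and 9 of their marker genes were followed here through RNA from neutrophils sorted out of mouse brain tumours. The genes were Gfap, Slc1a3, Slc1a2, Apod, Sparc, Sparcl1, Olig1, Olig2 and Mbp, taken by name from the 55450 genes of the deposited count table. They are used to ask how much RNA of glial or tumour type the sorted fractions held. The study sorted neutrophils by CD71, the transferrin receptor, which carries iron-loaded transferrin into the cell, and its question concerned hypoxia and lactylation of histones in neutrophils of gliomas.

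There were 4 groups of 2 libraries each. The tumour CD71+ and tumour CD71- groups were neutrophils from brain tumours grown from SB28, a mouse glioma cell line. The culture CD71+ and culture CD71- groups were neutrophils generated in vitro from the bone marrow of naive mice, where no brain or tumour tissue was present. The mouse strain, sex and age, and whether animals were pooled, are not given in the labels. Whether the 2 samples of a group came from different animals or cultures is not said either, so a p-value here weighs a difference against sample-to-sample spread that may be technical.

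Astrocytes take up glutamate at synapses, buffer ions and secrete matrix proteins. Oligodendrocytes wrap axons in myelin, and their precursors are marked by Olig transcription factors that many gliomas also express. Mature neutrophils make none of these structures, so such transcripts are commonly read as a sign of RNA from other cells in a sort. In bulk RNA, fewer cells of a type and less RNA per cell cannot be told apart.

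Total gene counts ran from 9598959 to 22615813 per library, and a count of 0 allows up to 3 counts, or 0.0916 to 0.419 CPM (counts scaled to a common library size, after TMM scaling). These limits cover counting error only. Mitochondrial transcripts, read as a sign of RNA quality, took 0.829% and 1.04% of counts in tumour CD71+, 0.413% and 0.202% in tumour CD71-, 1.45% and 2.17% in culture CD71+, and 7.09% and 12% in culture CD71- libraries, and their part in the results was not tested. Tfrc, the gene of the sort marker, averaged 105.6 ± 3.37 CPM in tumour CD71+ and 166 ± 29.6 CPM in tumour CD71- libraries (SD, n = 2 each), a log2 fold change of -0.65 (SE 0.19, edgeR's quasi-likelihood adjusted p = 0.0134). It lost that call without tumour CD71+ replicate 1 (adjusted p = 0.07) or 2 (0.0519), without tumour CD71- replicate 1 (0.0518) and by total counts (-0.08, adjusted p = 0.769). The transcript did not follow the sort label, so every direction below compares libraries by their label. Csf3r, which encodes the G-CSF receptor of neutrophils, was abundant at 2150 ± 215 CPM in tumour CD71+ and 5560 ± 317 CPM in tumour CD71- libraries (SD, n = 2 each). Ly6g, a defining surface marker of mouse neutrophils, was low in the tumour, at 7.56 ± 2.11 CPM in CD71+ and 11.8 ± 3.38 CPM in CD71- libraries. In culture Ly6g averaged 19.7 ± 4.84 CPM in CD71+ and 69.3 ± 12.8 CPM in CD71- libraries (SD, n = 2 each).

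The 9 genes fell into different patterns. Sparc, Slc1a3 and Apod were higher in the tumour CD71+ than in the tumour CD71- libraries. Gfap, Slc1a2 and Sparcl1 were present in both tumour fractions without a difference that passed the test. Olig1 and Olig2 had few counts. Mbp was read at a similar level in all 8 libraries, culture included. Apart from Mbp, the culture libraries held 0 or 1 count of each gene.

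**Figure D1:**
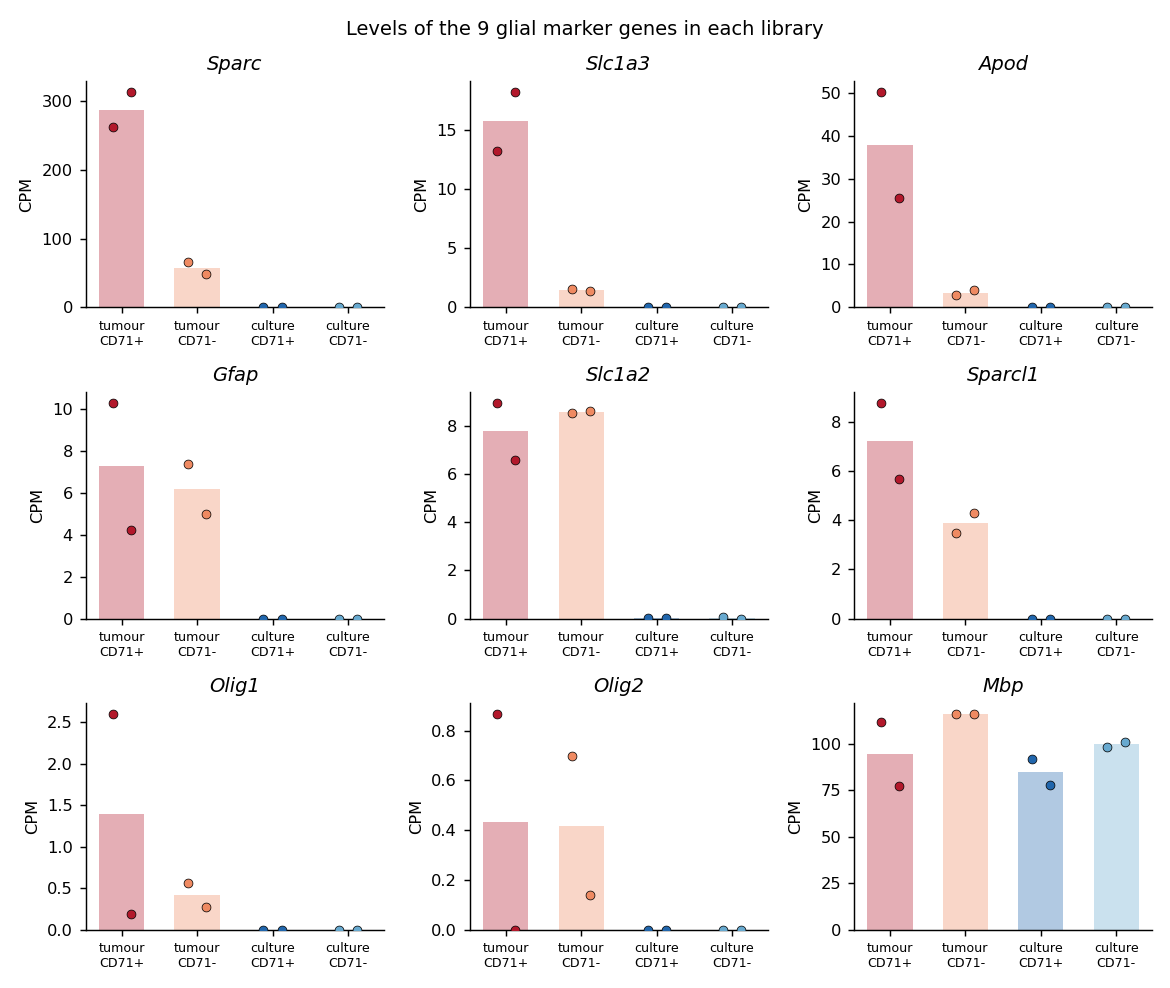
CPM of each gene in every library, with a panel per gene on its own linear axis; bars are group means and points are the 2 libraries of a group, replicate 1 at the left. Sparc, Slc1a3 and Apod separate tumour CD71+ from tumour CD71- libraries, the culture points lie at or near 0 for every gene but Mbp, and Mbp lies between 77.2 and 116 CPM in all 8 libraries.

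Sparc, Slc1a3 and Apod moved together between the tumour fractions and Gfap did not, so the letters before their transcript starts are shown. Each stretch is the 250 bases before the RefSeq start on GRCm38.p6, read 5′ to 3′ on the gene's strand, which is the minus strand for these genes. Promoters of 6 of the 9 genes were read from RefSeq's table. Capitals mark matches on either strand to TATAAA (the TATA box), GAGGAA (the core of sites for PU.1, a factor of myeloid cells) or ACAAAG (the core of SOX sites). The matches shown do not overlap each other. Sparc stands at chr11:55420081-55420330, Slc1a3 at chr15:8710808-8711057, Apod at chr16:31314809-31315058 and Gfap at chr11:102897201-102897450.
Sparc: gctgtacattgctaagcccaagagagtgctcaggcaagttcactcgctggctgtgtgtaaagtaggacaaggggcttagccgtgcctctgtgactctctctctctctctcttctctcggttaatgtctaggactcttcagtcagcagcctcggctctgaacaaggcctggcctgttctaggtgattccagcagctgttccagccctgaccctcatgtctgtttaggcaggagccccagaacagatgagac
Slc1a3: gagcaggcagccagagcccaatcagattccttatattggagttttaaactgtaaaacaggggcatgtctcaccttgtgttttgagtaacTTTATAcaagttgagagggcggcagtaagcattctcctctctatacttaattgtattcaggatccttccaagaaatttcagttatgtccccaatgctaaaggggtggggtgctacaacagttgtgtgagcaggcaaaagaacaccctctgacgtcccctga
Apod: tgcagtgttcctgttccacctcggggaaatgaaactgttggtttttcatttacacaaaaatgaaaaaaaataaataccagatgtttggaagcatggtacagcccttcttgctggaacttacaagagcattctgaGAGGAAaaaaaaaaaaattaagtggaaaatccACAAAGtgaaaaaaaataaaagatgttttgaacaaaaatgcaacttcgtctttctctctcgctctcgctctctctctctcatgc
Gfap: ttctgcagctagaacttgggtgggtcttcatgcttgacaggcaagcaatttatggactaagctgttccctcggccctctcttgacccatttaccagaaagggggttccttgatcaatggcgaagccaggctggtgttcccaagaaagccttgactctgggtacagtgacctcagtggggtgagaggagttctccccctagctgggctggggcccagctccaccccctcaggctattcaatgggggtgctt

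The Sparc and Gfap windows held none of the 3 motifs. The Slc1a3 window held TATAAA on the opposite strand, at base 90 of the stretch. The Apod window held GAGGAA at base 135 and ACAAAG at base 167, both on the strand of the gene. Over the 32851 RefSeq promoters cut to the same length, 12.4% held TATAAA, 23.3% GAGGAA and 16.5% ACAAAG. The share of G and C was 54% before Sparc, 44.8% before Slc1a3, 36.4% before Apod and 55.6% before Gfap, with a median of 52.4% over all these promoters. The 3 genes that rose in tumour CD71+ libraries thus shared none of these motifs in this window. The RefSeq starts of Sparc and Gfap lie 3103 and 3712 bases inside the outermost gene start of GENCODE M21.

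Sparc encodes a secreted protein that binds collagen and calcium, and in mouse brain it is made by astrocytes, endothelial cells and microglia. The gene (ENSMUSG00000018593.13) spans chromosome 11 from 55394500 to 55423183 on the minus strand of mm10. Its counts were 2722 and 3328 in the tumour CD71+ libraries, 473 and 353 in tumour CD71-, 0 and 1 in culture CD71+, and 0 and 1 in culture CD71-. Both tumour CD71+ libraries stood above both tumour CD71- libraries, with no overlap. Sparc averaged 287.9 ± 36.4 CPM in tumour CD71+ and 57.6 ± 12.1 CPM in tumour CD71- libraries (SD, n = 2 each). The log2 fold change was 2.32 (SE 0.22, 95% interval 1.85 to 2.80, edgeR adjusted p = 6.65e-06).

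Slc1a3 encodes GLAST, a transporter that clears glutamate, expressed in astrocytes and in radial glia. The gene (ENSMUSG00000005360.14) lies on chromosome 15 from 8634124 to 8710764, minus strand. It had 137 and 193 counts in tumour CD71+ libraries and 11 and 10 in tumour CD71- libraries, and 0 in every culture library. The tumour CD71- values lay close to each other and far under both tumour CD71+ values. Its level was 15.7 ± 3.53 CPM in tumour CD71+ and 1.46 ± 0.106 CPM in tumour CD71- libraries (SD, n = 2 each), a log2 fold change of 3.42 (SE 0.44, 95% interval 2.46 to 4.38, edgeR adjusted p = 0.000139).

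Apod encodes apolipoprotein D, a small lipid carrier made in the brain by oligodendrocytes, astrocytes and perivascular cells. The gene (ENSMUSG00000022548.14) lies on chromosome 16 from 31296192 to 31314808, minus strand. It had 521 and 270 counts in tumour CD71+ libraries, against 21 and 29 in tumour CD71- libraries and 0 in culture. The 2 tumour CD71+ libraries differed from each other, at 50.2 and 25.4 CPM, and both stood above the 2.94 and 4.02 CPM of the tumour CD71- libraries. The log2 fold change was 3.44 (SE 0.40, 95% interval 2.57 to 4.31, edgeR adjusted p = 7.63e-05).

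Against these stood the astrocyte markers that the test did not call. Gfap encodes the glial fibrillary acidic protein, an intermediate filament that reactive astrocytes build up. The gene (ENSMUSG00000020932.14) lies on chromosome 11 from 102887336 to 102900912, minus strand. It had 107 and 45 counts in tumour CD71+ libraries, 53 and 36 in tumour CD71- libraries, and 0 in culture. In CPM the tumour CD71+ libraries, at 10.3 and 4.24, enclosed the tumour CD71- libraries, at 7.41 and 4.995. The log2 fold change was 0.23 (SE 0.49, 95% interval -0.84 to 1.29, edgeR adjusted p = 0.734), an interval that holds changes of either sign.

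Slc1a2 encodes GLT-1, the main glutamate transporter of adult astrocytes. The gene (ENSMUSG00000005089.15) lies on chromosome 2 from 102658659 to 102790784, plus strand, and 189 of its exonic bases are shared with Gm13872 on the other strand. Since the strand setting of the counting was not given, reads there could not be assigned. Slc1a2 had 93 and 70 counts in tumour CD71+ libraries, 61 and 62 in tumour CD71-, 1 and 1 in culture CD71+, and 1 and 0 in culture CD71-. At 8.96 and 6.60 CPM the tumour CD71+ libraries lay on either side of the tumour CD71- libraries, at 8.53 and 8.603 CPM. The log2 fold change was -0.14 (SE 0.37, 95% interval -0.93 to 0.65, edgeR adjusted p = 0.785).

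Sparcl1 encodes hevin, a relative of Sparc that astrocytes secrete and that promotes synapse formation. The gene (ENSMUSG00000029309.7) lies on chromosome 5 from 104079111 to 104113733, minus strand. It had 91 and 60 counts in tumour CD71+ libraries, 25 and 31 in tumour CD71- libraries, and 0 in culture. The groups did not overlap, at 8.76 and 5.65 CPM in tumour CD71+ and 3.50 and 4.30 CPM in tumour CD71- libraries. The difference did not pass the test, with a log2 fold change of 0.89 (SE 0.45, 95% interval -0.10 to 1.87, edgeR adjusted p = 0.133). Scaled by total counts it passed, at 1.43 (adjusted p = 0.0269).

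Of the 9 genes, 7 passed the filter on low counts, and 3 of these 7 (42.9%) were called in the comparison of the tumour fractions, all higher in CD71+. Among all 15975 genes tested, 43.5% were called in either direction and 26.2% were called higher. The share of glial markers called in either direction was therefore near the background. The median of the 7 log2 fold changes was 0.89, beside 0.13 over all genes tested. Both tumour fractions differed at many genes, and these values describe the named genes only.

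Ratios between genes of the same library do not depend on the scaling. For each 100 Sparc counts there were 5.03 and 5.80 Slc1a3 counts in tumour CD71+ libraries, against 2.33 and 2.83 in tumour CD71- libraries. Gfap gave 3.93 and 1.35 per 100 Sparc counts in tumour CD71+, against 11.2 and 10.2 in tumour CD71-. Slc1a2 gave 3.42 and 2.10 in tumour CD71+, against 12.9 and 17.6 in tumour CD71-. The tumour fractions thus held these genes in different proportions. Apod, at 19.1 and 8.11 per 100 Sparc counts in tumour CD71+ and 4.44 and 8.22 in tumour CD71-, overlapped between the fractions.

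Olig1 and Olig2 are basic helix-loop-helix factors that specify and mark the oligodendrocyte lineage, and they neighbour each other on chromosome 16. Olig1 (ENSMUSG00000046160.6, 91269772 to 91271933, plus strand) had 27 and 2 counts in tumour CD71+ libraries and 4 and 2 in tumour CD71- libraries. Olig2 (ENSMUSG00000039830.9, 91225457 to 91228677, plus strand) had 9 and 0 counts in tumour CD71+ libraries and 5 and 1 in tumour CD71- libraries. Both were at 0 in all 4 culture libraries. The counts of both genes in tumour CD71+ came mostly or wholly from replicate 1.

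Neither Olig gene passed the filter. In a fit of all 29244 genes with at least 1 count, Olig1 had a log2 fold change of 1.74 between the tumour fractions (edgeR adjusted p = 0.295) and Olig2 one of 0.07 (edgeR adjusted p = 1). Of the Olig1 exonic bases, 157 are shared with Gm15966 on the opposite strand.

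Mbp encodes myelin basic protein, which compacts the myelin sheath, and the same locus gives golli transcripts from a start far upstream, which in mouse are also made in blood-forming and immune cells. The gene (ENSMUSG00000041607.17) lies on chromosome 18 from 82475146 to 82585637, plus strand. Of its 16 transcripts in GENCODE M21, 4 start within 1 kb of the gene start and 12 start at least 79324 bases further in. The table counts all of them as 1 gene, so the classes cannot be told apart.

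Mbp had 1162 and 819 counts in tumour CD71+ libraries, 829 and 836 in tumour CD71-, 3012 and 2257 in culture CD71+, and 1659 and 1114 in culture CD71-. In CPM these were 112 and 77.2 in tumour CD71+, 116 and 116 in tumour CD71-, 92.0 and 78.1 in culture CD71+, and 98.4 and 101 in culture CD71-. The culture libraries, without brain tissue, lay within the range of the tumour libraries. Of the 9 genes, Mbp alone was read at more than 1 count in any culture library.

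No comparison of Mbp passed the test. The log2 fold change was -0.29 between the tumour fractions (SE 0.19, 95% interval -0.70 to 0.11, edgeR adjusted p = 0.221). Between culture CD71+ and culture CD71- it was -0.23 (SE 0.19, 95% interval -0.63 to 0.17, edgeR adjusted p = 0.443), where 16.2% of genes were called. The difference between the tumour and the culture effect was -0.06 (SE 0.27, 95% interval -0.63 to 0.50, edgeR adjusted p = 0.909), where 15.5% of genes were called.

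Tumour CD71+ over culture CD71+ gave 0.15 for Mbp (SE 0.19, 95% interval -0.25 to 0.55, edgeR adjusted p = 0.501), where 57.9% of genes were called. Tumour CD71- over culture CD71- gave 0.22 (SE 0.19, 95% interval -0.19 to 0.62, edgeR adjusted p = 0.32), where 67.1% of genes were called. Each of these 5 values turned sign when libraries were scaled by total counts: 0.259 between the tumour fractions (adjusted p = 0.279), 0.0806 in culture (adjusted p = 0.797) and 0.178 for their difference (adjusted p = 0.687). By total counts Mbp was lower in the tumour, with log2 fold changes of -0.531 for CD71+ (adjusted p = 0.0186) and -0.709 for CD71- (adjusted p = 0.00304). With RLE factors both the fall between the tumour fractions, at -0.516 (adjusted p = 0.0374), and the excess of tumour CD71- over culture CD71-, at 0.463 (adjusted p = 0.0421), passed.

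The myelin genes Mobp and Mog, unlike Mbp, had no counts in culture. Mobp, a protein of compact myelin, averaged 17.8 ± 0.947 CPM in tumour CD71+ and 11.3 ± 2.82 CPM in tumour CD71- libraries (SD, n = 2 each) and was at 0 in all 4 culture libraries. Mog, a myelin surface protein, had 28 counts over the tumour CD71+ and 11 over the tumour CD71- libraries, and 0 in culture.

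Tumour libraries stood above culture for Gfap, Slc1a3, Apod and Sparcl1, which had 0 counts in culture. Against the limit of 3 counts per culture library, tumour CD71+ over culture CD71+ was at least 387-fold higher for Apod, 161-fold for Slc1a3, 74.4-fold for Gfap and 73.8-fold for Sparcl1. Tumour CD71- over culture CD71- was at least 27.6-fold higher for Gfap, 17.3-fold for Sparcl1, 15.5-fold for Apod and 6.5-fold for Slc1a3. These genes passed the filter through the tumour libraries alone, so no count of calls is given for them against culture. Sparc and Slc1a2 had single culture counts and are given by their levels above.

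Compared per length as RPKM (CPM per kilobase of exon), Sparc was the highest of the 9 in tumour CD71+ libraries at 76.0 ± 9.61. It was followed by Apod at 14.7 ± 6.79 and Mbp at 11.2 ± 2.9, whose ranges overlapped. Sparcl1 (2.45 ± 0.749 RPKM), Slc1a3 (1.84 ± 0.414 RPKM), Gfap (1.72 ± 1.02 RPKM), Olig1 (0.645 ± 0.789 RPKM) and Slc1a2 (0.592 ± 0.127 RPKM) came next, each overlapping its neighbour. Olig2 was lowest at 0.171 ± 0.242 RPKM (SD, n = 2 for each gene).

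In tumour CD71- libraries Sparc, at 15.2 ± 3.2 RPKM, and Mbp, at 13.7 RPKM, overlapped at the top. Gfap (1.47 ± 0.405 RPKM), Apod (1.35 ± 0.299 RPKM) and Sparcl1 (1.33 ± 0.194 RPKM) followed and overlapped. Slc1a2 stood at 0.652 RPKM, above Olig1 at 0.194, Slc1a3 at 0.171 and Olig2 at 0.166 RPKM (n = 2 for each gene). Slc1a3 thus stood above Gfap in mean RPKM in tumour CD71+ libraries, with overlapping ranges, and below it, clear of overlap, in tumour CD71-. In culture, Mbp averaged 10.04 ± 1.16 RPKM in CD71+ and 11.8 ± 0.229 RPKM in CD71- libraries (SD, n = 2 each), and no other gene's mean exceeded 0.012 RPKM.

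As shares of a whole library, the 8 genes other than Mbp took 0.0316% (95% Wilson interval 0.0306 to 0.0327) and 0.0356% (0.0345 to 0.0367) of the counts in the tumour CD71+ libraries. In the tumour CD71- libraries they took 0.00549% (0.00508 to 0.00593) and 0.00469% (0.0043 to 0.00511). In culture the 8 genes together had 1 and 2 counts in CD71+ and 1 and 1 in CD71- libraries. Sparc supplied 73.4% and 83.9% of these counts in tumour CD71+ and 72.4% and 67.4% in tumour CD71-.

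Without Sparc and Mbp the other 7 genes took 0.00841% and 0.00574% of the counts in tumour CD71+ and 0.00151% and 0.00153% in tumour CD71-. The tumour CD71+ shares were above the tumour CD71- shares with and without Sparc. A share of counts is no share of cells, since no level of these genes per glial or tumour cell was measured here.

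**Figure D2:**
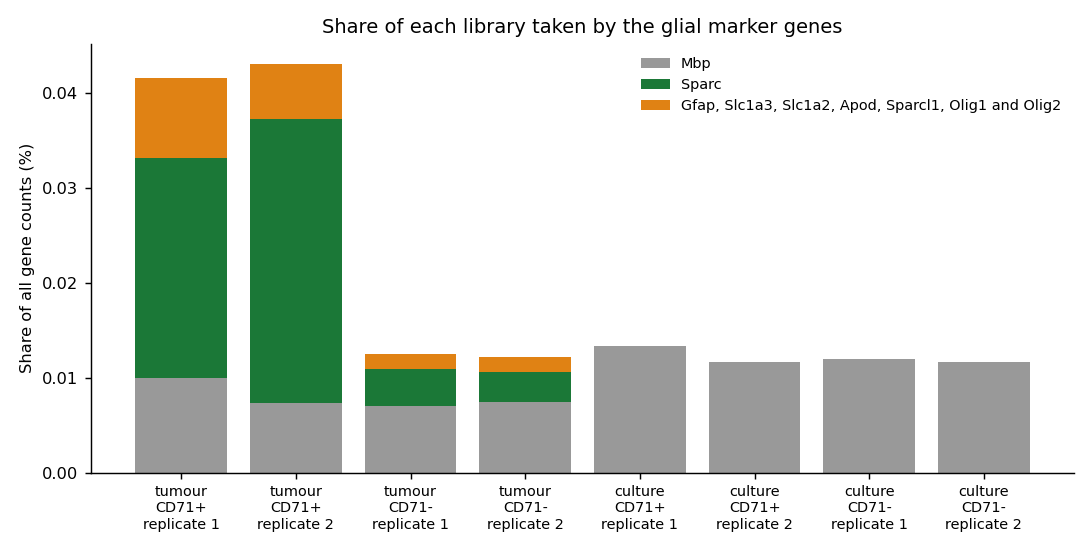
Share of all gene counts, in percent, taken in each library by Mbp, by Sparc and by the other 7 genes, stacked from 0. The 9 genes reach 0.0416% and 0.0429% in the tumour CD71+ libraries and 0.0125% and 0.0122% in the tumour CD71- libraries, and in culture the bar is Mbp but for 1 or 2 counts per library.

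Further markers of the same cells were read from lists written beside the 9 genes. Of 15 astrocyte genes, 9 were tested between the tumour fractions, with 6 higher in CD71+, 0 lower and a median log2 fold change of 1.33. Over all genes tested 26.2% were called higher and the median was 0.13, against which the counts and medians of this and the following lists are to be read. Gja1, the gap junction protein connexin 43, averaged 25.4 ± 3.83 CPM in tumour CD71+ and 7.39 ± 2.21 CPM in tumour CD71- libraries (SD, n = 2 each), and its log2 fold change was 1.78 (edgeR adjusted p = 0.000862). Glul, glutamine synthetase, which myeloid cells also use, averaged 340 ± 82.1 CPM in tumour CD71+ and 153 ± 38.3 CPM in tumour CD71- libraries (log2 fold change 1.15, edgeR adjusted p = 0.00157), a call lost without tumour CD71- replicate 1 (0.76, adjusted p = 0.063). Glul was also read in culture, at 74.6 ± 11.7 CPM in CD71+ and 64.2 ± 13.3 CPM in CD71- libraries (SD, n = 2 each).

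Clu, the chaperone clusterin, averaged 13.8 ± 6.48 CPM in tumour CD71+ and 5.5 ± 0.719 CPM in tumour CD71- libraries (SD, n = 2 each; log2 fold change 1.33, edgeR adjusted p = 0.0488). That call was lost with RLE factors (1.11, adjusted p = 0.0891) and without tumour CD71+ replicate 1 (0.743, adjusted p = 0.319), among other settings. Aqp4, the water channel of astrocyte endfeet, had 2 and 16 counts in tumour CD71+, 10 and 4 in tumour CD71- and 0 in culture. The Aqp4 counts overlapped between the tumour fractions, as those of Gfap did. The summed astrocyte list stood at 358 and 456 CPM in tumour CD71+, 154 and 204 in tumour CD71-, 297 and 216 in culture CD71+, and 199 and 256 in culture CD71- libraries, so the sum did not separate tumour from culture. Much of the culture sum was Aldoc, the enzyme aldolase C, at 161 ± 43.1 CPM in CD71+ and 136 ± 31.0 CPM in CD71- libraries. In the tumour Aldoc averaged 4.72 ± 0.679 CPM in CD71+ and 2.02 ± 0.482 CPM in CD71- libraries (SD, n = 2 each). It was among the genes called higher in tumour CD71+ (log2 fold change 1.22, edgeR adjusted p = 0.0131). The count of astrocyte genes called higher was 1 of 9 without tumour CD71- replicate 1, 2 without tumour CD71- replicate 2, and 9 by total counts.

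Of 15 oligodendrocyte and precursor genes, 8 were tested, with 6 higher in tumour CD71+, 0 lower and a median of 1.92. Cnp, a myelin enzyme, averaged 10.6 ± 0.511 CPM in tumour CD71+ and 2.58 ± 0.0847 CPM in tumour CD71- libraries (SD, n = 2 each; log2 fold change 2.03, edgeR adjusted p = 0.000386), and it was read in culture too, at 7.999 ± 0.693 CPM in CD71+ and 5.82 ± 0.761 CPM in CD71- libraries. Mobp had a log2 fold change of 0.66 that did not pass (edgeR adjusted p = 0.114).

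Gpr17, a receptor of committed oligodendrocyte precursors, was picked out after its values were seen, since it had 46 and 29 counts in tumour CD71+ and 0 in both tumour CD71- libraries. Against 3 counts per library it was at least 8.57-fold higher in tumour CD71+. The summed list stood at 116 and 64.2 CPM in tumour CD71+, 37.6 and 28.7 in tumour CD71-, 11.2 and 10.7 in culture CD71+, and 7.35 and 7.90 in culture CD71- libraries. The 4 groups did not overlap in this sum. The count of oligodendrocyte and precursor genes called higher was 3 of 8 without tumour CD71+ replicate 1 and also without either tumour CD71- library.

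Of 12 neural progenitor and glioma genes, 9 were tested, with 4 higher in tumour CD71+, 0 lower and a median of 2.37. The count ranged from 2 (without tumour CD71- replicate 2) to 8 (by total counts), and the median was 1.45 without tumour CD71+ replicate 1. Pdgfb, the growth factor chain made by many gliomas and by vessels, averaged 55.9 ± 2.95 CPM in tumour CD71+ and 7.74 ± 2.90 CPM in tumour CD71- libraries (SD, n = 2 each; log2 fold change 2.85, edgeR adjusted p = 0.000456). Vcan, the matrix proteoglycan versican, which monocytes also make, averaged 153 ± 22.8 CPM in tumour CD71+ and 27.3 ± 6.06 CPM in tumour CD71- libraries (log2 fold change 2.48, edgeR adjusted p = 2.81e-05). Vcan was also read in culture, at 142 ± 17.5 CPM in CD71+ and 150 ± 59.0 CPM in CD71- libraries (SD, n = 2 each). Trp53, the p53 tumour suppressor, had a log2 fold change of 0.25 that did not pass (edgeR adjusted p = 0.337). It averaged 19.9 CPM in tumour CD71+, 16.7 in tumour CD71-, 36.8 in culture CD71+ and 40.3 in culture CD71- libraries (n = 2 each). The summed list stood at 300 and 233 CPM in tumour CD71+ and 72.4 and 49.96 in tumour CD71- libraries. In culture the sum was 190 and 170 CPM in CD71+ and 230 and 151 in CD71- libraries, so it did not separate tumour from culture.

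The progenitor factor Sox2 had 26 and 31 counts in tumour CD71+ libraries, 4 and 1 in tumour CD71- libraries and 0 in culture. Ptprz1, a phosphatase of precursors and glioma cells, had 276 and 31 counts in tumour CD71+, 5 and 13 in tumour CD71-, and 0 in culture. The 2 tumour CD71+ libraries thus differed widely in Ptprz1. Many genes of these 3 lists passed the filter through the tumour libraries alone, so the counts above describe the lists and carry no weight beyond that.

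**Figure D3:**
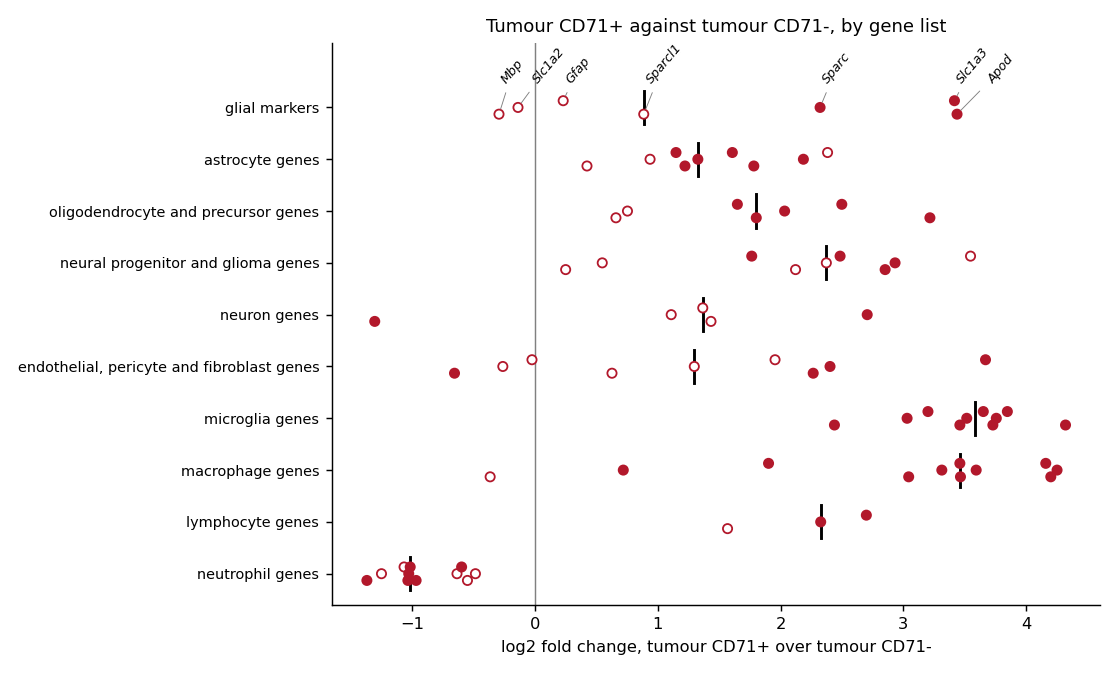
Log2 fold change of tumour CD71+ over tumour CD71- for tested genes of each list, 1 point a gene; filled points passed edgeR's test, black bars are medians of the plotted genes, and genes with 0 or 1 count in tumour CD71- are left out. Of the glial markers, Sparc, Slc1a3 and Apod lie farthest to the right and Gfap, Slc1a2 and Mbp near 0, and the neutrophil genes lie to the left.

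Markers of microglia and macrophages, the resident and recruited phagocytes of brain tumours, moved with the same comparison. All 10 microglia genes were higher in tumour CD71+ libraries, with a median log2 fold change of 3.58, and 10 of the 11 tested of 12 macrophage genes were higher, with a median of 3.46. Summed, the microglia list stood at 1123 and 1600 CPM in tumour CD71+, 115 and 150 in tumour CD71-, 163 and 132 in culture CD71+, and 71.8 and 73.7 in culture CD71- libraries. The macrophage list stood at 3481 and 3820 CPM in tumour CD71+, 820 and 777 in tumour CD71-, 1095 and 930 in culture CD71+, and 660 and 708 in culture CD71- libraries. Both sums were higher in tumour CD71+ than in any other library.

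Cx3cr1, the fractalkine receptor of microglia, averaged 302 ± 35.1 CPM in tumour CD71+ and 24.02 ± 2.93 CPM in tumour CD71- libraries (SD, n = 2 each; log2 fold change 3.65, edgeR adjusted p = 6.66e-07). Fcrls, an Fc receptor-like protein of microglia, rose by 3.46 (edgeR adjusted p = 4.01e-07). Sall1, a defining transcription factor of microglia, averaged 77.7 ± 20.8 CPM in tumour CD71+ and 5.85 ± 0.363 CPM in tumour CD71- libraries and was at 0 in culture.

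Among macrophage genes, C1qa, a chain of complement C1q, averaged 446 ± 49.1 CPM in tumour CD71+ and 40.4 ± 9.04 CPM in tumour CD71- libraries (SD, n = 2 each; log2 fold change 3.47, edgeR adjusted p = 7.86e-07). Apoe, the lipid carrier apolipoprotein E, rose by 3.31 (edgeR adjusted p = 4.01e-07), and Csf1r, the receptor for macrophage growth factor, by 1.90 (edgeR adjusted p = 4.59e-06). Csf1r averaged 942 ± 130 CPM in tumour CD71+ and 252 ± 20.3 CPM in tumour CD71- libraries (SD, n = 2 each). It was also read in culture, at 748 ± 62.1 CPM in CD71+ and 547 ± 28.0 CPM in CD71- libraries. In culture Apoe averaged 24.8 CPM in either group, and C1qa 0.557 CPM in CD71+ and 0 in CD71- libraries. Per length, C1qa reached 429 RPKM in tumour CD71+ libraries, where Sparc reached 76.0 and Slc1a3 1.84 RPKM. The part of these cells in the levels of Sparc, Slc1a3 and Apod was not tested.

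Neutrophil genes ran the other way. Of 12 listed and 11 tested, 6 were lower in tumour CD71+ and 0 higher, with a median of -1.02. By total counts 2 were lower and the median was -0.46. Csf3r fell by 1.37 on the log2 scale (edgeR adjusted p = 0.000114) and Il1r2, the decoy receptor for interleukin 1, fell by 1.04 (edgeR adjusted p = 0.000884). S100a9, a subunit of calprotectin, had a log2 fold change of -0.49 that did not pass (edgeR adjusted p = 0.0598), beside -0.708 with RLE factors (adjusted p = 0.0105) and 0.0702 by total counts (adjusted p = 0.798). The call of Il1r2 was lost by total counts (-0.477, adjusted p = 0.0668). The summed list stood at 8040 and 7814 CPM in tumour CD71+, 15240 and 17290 in tumour CD71-, 4160 and 3187 in culture CD71+, and 8118 and 7762 in culture CD71- libraries. The sum was lower in CD71+ than in CD71- libraries of both tumour and culture.

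In culture, with no brain present, the same contrast of CD71+ with CD71- had 4 of 10 microglia genes, 8 of 11 macrophage genes and 2 of 9 astrocyte genes higher, where 16.2% of all genes tested were called in either direction. In that contrast 1 astrocyte gene was lower, no oligodendrocyte gene passed of 8 tested, and 6 of 11 neutrophil genes were lower. Among the genes tested, Mobp, Sox10, Gpr17, S100b, Sall1 and Siglech had 0 counts in culture, so they could not be called in that contrast. The share of 16.2% covers both directions, and a share called higher alone is not given for culture.

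The 2 tumour CD71+ libraries also differed from each other in these genes. Among genes with at least 30 counts over both, the log2 ratio of replicate 1 over replicate 2 was 1.26 for Gfap, 0.98 for Apod, 0.62 for Sparcl1, 0.54 for Mbp and 0.44 for Slc1a2. The ratio was -0.26 for Sparc and -0.46 for Slc1a3. So 5 of these 7 genes were higher in replicate 1 and 2 in replicate 2.

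Among oligodendrocyte and precursor genes, 9 of 10 were higher in replicate 1, with a median log2 ratio of 0.90. Medians of the neuron (0.92, 3 of 4 higher in replicate 1), endothelial, pericyte and fibroblast (0.47, 5 of 8), astrocyte (0.22, 6 of 10) and progenitor (0.21, 6 of 8) lists were on the same side. Among microglia genes, 9 of 10 were higher in replicate 2, with a median of -0.46. Lymphocyte genes (-1.25, 5 of 6 higher in replicate 2), macrophage genes (-0.15, 7 of 11) and neutrophil genes (-0.07, 7 of 11) had medians on that side too. This is a description of 2 libraries, with no test.

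**Figure D4:**
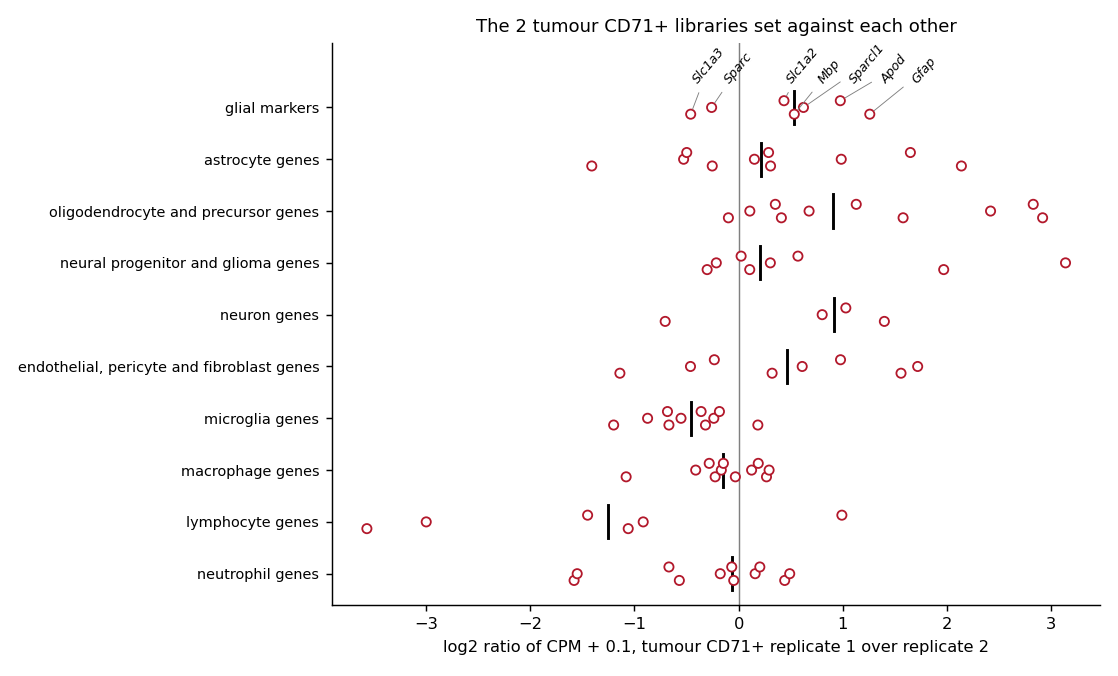
Log2 ratio of CPM + 0.1 in tumour CD71+ replicate 1 over replicate 2, 1 point a gene with at least 30 counts over both, and black bars at list medians. The oligodendrocyte list has 9 of 10 genes right of 0 and the microglia list 9 of 10 left of 0, and of the glial markers Sparc and Slc1a3 lie left of 0 and the other 5 right.

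Genes whose pattern over the 8 libraries was most like that of the markers were sought among 13921 tested genes with a mean of at least 1 CPM. Likeness was the mean absolute difference in centred log2 CPM from the median profile of the 7 tested markers. The nearest were Cldn11 (0.20), a tight junction protein of myelin, Parva (0.26), a focal adhesion protein, Cdh2 (0.27), the neural cadherin, Gpm6b (0.29), a membrane glycoprotein of neurons and oligodendrocytes, and Nfib (0.30), a transcription factor of the NFI family. Cldn11 is also a gene of the oligodendrocyte list.

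Cldn11 had 8.57 and 6.69 CPM in tumour CD71+, 4.19 and 4.86 in tumour CD71-, and at most 0.0692 in culture. Parva had 13.1 and 8.39 CPM in tumour CD71+, 4.61 and 2.64 in tumour CD71-, and 0 in culture. Of the markers themselves, Sparcl1 (0.06) and Gfap (0.21) lay closest to the profile, and Sparc (2.09) and Mbp (2.67) farthest.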

How the data were processed

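The deposited table held whole-number read counts per gene, not normalized, for 8 libraries. Per the labels' protocols, total RNA was depleted of ribosomal RNA and made into stranded libraries. The submitters' processing notes name STAR, featureCounts, cutadapt, FastQC, DESeq2 and the build mm10; versions and the strand setting are not given in the sources used here. All 55450 gene IDs were found in GENCODE M21.

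Counts were fitted in R 4.3.3 with edgeR 4.0.16 (TMM factors, filterByExpr, 4 group means, quasi-likelihood test, 15975 genes, 4 residual degrees of freedom). P-values were adjusted by Benjamini-Hochberg over all genes, and a gene was called at an adjusted p under 0.05. Alternatives were RLE factors, total counts, no filter, a replicate block, the tumour libraries alone, each library left out, and DESeq2 1.42.0. No replicate pair was identical, and their counts differed by a chi-square of 12.6 to 69.2 per degree of freedom.

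The members and lists were chosen with earlier results of these data known. From each list the text names the 3 tested genes with the highest mean tumour CPM, of which some are not reported here; Aqp4, Mog, Sox2, Ptprz1, Sall1, Ly6g, Gpr17, Kdr, Pdgfrb and Col1a2 were added after their values were seen. Sequences are RefSeq's, on GRCm38.p6.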

Additional observations from a re-analysis of the deposited data

How the results depend on the processing

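Sparc, Slc1a3 and Apod were higher in tumour CD71+ than in tumour CD71- under all 14 alternatives, with log2 fold changes of 2.01 to 2.90, 3.16 to 3.98 and 2.86 to 3.98 and adjusted p up to 0.00176, 0.00608 and 0.00593. Gfap and Slc1a2 passed under 0 of 14 (adjusted p 0.222 to 0.995 and 0.419 to 1), Sparcl1 under 1 and Mbp under 3. With each library left out in turn, Gfap ran from -0.551 (without tumour CD71+ replicate 1) to 0.722 and was -0.138 without tumour CD71- replicate 2. Slc1a2 ran from -0.38 to 0.0526 (without tumour CD71+ replicate 2). The Mbp difference of effects ran from -0.367 to 0.147 (without tumour CD71+ replicate 2), with 0.0377 without culture CD71+ replicate 1. Mbp in tumour over culture CD71+ ran from -0.16 (without tumour CD71+ replicate 1) to 0.348, with -0.000661 without culture CD71+ replicate 2. Mbp between the tumour fractions was -0.59 without tumour CD71+ replicate 1 (adjusted p = 0.0488). Scaled by total counts, Slc1a2 was 0.415 (adjusted p = 0.419) and Mbp 0.259 between the tumour fractions, 0.0806 in culture, 0.178 for the difference, -0.531 for CD71+ and -0.709 for CD71- in tumour over culture. S100a9 was 0.0702 and Flt1 0.529 by total counts, and Flt1 was 0.00526 with no filter; with a library left out Flt1 ran from -0.242 to 0.115 (without tumour CD71+ replicate 2) and Col1a1 from -0.481 (without tumour CD71+ replicate 1) to 1.24. DESeq2 gave -0.516 for Mbp between the tumour fractions (adjusted p = 0.0403). With TMM the median of all genes was 0.131 between the tumour fractions. From that value it shifted by -0.201 with RLE factors and by 0.562 with total counts. The share of calls that were higher in CD71+ was 60.2% with TMM, 47.3% with RLE factors, 93.3% with total counts and 45.8% with DESeq2. The count of genes called, 6950, was 4495 to 7712 with a library left out (4495 without tumour CD71- replicate 2). In culture the count of 2595 ran from 826 (without culture CD71+ replicate 1, and 1050 without replicate 2) to 2880, and for the difference the count of 2470 ran from 966 (without tumour CD71- replicate 2) to 3609; it was 1255 without tumour CD71- replicate 1, and 1014 and 1012 without culture CD71+ replicate 1 and 2. The cause was not tested. The labels do not say that a number marks a shared animal or batch, and deviations of same-numbered libraries correlated at 0.0716 in the tumour and 0.012 in culture; with a replicate block 6336 genes were called between the tumour fractions, and no call of the 9 genes changed.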

Other observations

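Other cell types were read in the same libraries by lists of their markers. Of 12 neuron genes 5 were tested between the tumour fractions, with 1 higher in CD71+ and 1 lower. Syn1, a synaptic vesicle protein, averaged 3.69 ± 2.41 CPM in tumour CD71+ and 9.12 ± 1.82 CPM in tumour CD71- libraries (SD, n = 2 each; log2 fold change -1.31, edgeR adjusted p = 0.0252). It was also read in culture, at 2.91 ± 0.0962 CPM in CD71+ and 3.33 ± 0.175 CPM in CD71- libraries (SD, n = 2 each). Syn1 lost its call by total counts (-0.768, adjusted p = 0.165), without tumour CD71+ replicate 2 (-0.77, adjusted p = 0.153) or without tumour CD71- replicate 2 (-1.2, adjusted p = 0.132), where 0 neuron genes were called in either direction. Map2, a microtubule protein of dendrites, had a log2 fold change of 1.11 that did not pass (edgeR adjusted p = 0.201). The summed neuron list stood at 18.2 and 11.8 CPM in tumour CD71+, 12.9 and 15.1 in tumour CD71-, 3.45 and 3.50 in culture CD71+, and 3.62 and 5.08 in culture CD71- libraries.

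Of 14 endothelial, pericyte and fibroblast genes 9 were tested, with 3 higher and 1 lower and a median log2 fold change of 1.30. The 3 that were higher, named after their values were seen, were Kdr, a VEGF receptor of endothelium (8.07 ± 4.32 CPM in tumour CD71+ and 0.627 ± 0.0952 CPM in tumour CD71- libraries, SD, n = 2 each; log2 fold change 3.67, edgeR adjusted p = 0.000542), Pdgfrb, a receptor of pericytes (2.40, edgeR adjusted p = 0.000577), and Col1a2, a chain of collagen I (2.27, edgeR adjusted p = 0.019). The call of Col1a2 was lost without tumour CD71+ replicate 1 (1.28, adjusted p = 0.0982), without tumour CD71- replicate 2 (1.7, adjusted p = 0.126) and with DESeq2 (adjusted p = 0.226). Pecam1, an adhesion protein of endothelium that leukocytes also carry, averaged 78.1 ± 8.91 CPM in tumour CD71+ and 123 ± 8.83 CPM in tumour CD71- libraries (log2 fold change -0.66, edgeR adjusted p = 0.00611), a call lost by total counts (-0.0884, adjusted p = 0.726). Col1a1, the other chain of collagen I, had 43.2 ± 32.7 CPM in tumour CD71+ and 28.0 ± 11.3 CPM in tumour CD71- libraries, a log2 fold change of 0.63, and Flt1, a VEGF receptor, one of -0.03, neither of which passed (edgeR adjusted p = 0.324 and 0.954). The summed list stood at 248 and 176 CPM in tumour CD71+, 222 and 186 in tumour CD71-, 211 and 215 in culture CD71+, and 189 and 183 in culture CD71- libraries, with overlapping groups. Of 10 lymphocyte genes 4 were tested and 3 were higher in tumour CD71+, with 0 called without tumour CD71- replicate 1. Cd3e, a chain of the T cell receptor complex, averaged 4.22 ± 2.16 CPM in tumour CD71+ and 0.836 ± 0.00446 CPM in tumour CD71- libraries (log2 fold change 2.33, edgeR adjusted p = 0.0142), a call lost without tumour CD71+ replicate 2 (1.67, adjusted p = 0.117) or either tumour CD71- library (adjusted p = 0.102 and 0.103). Trac, a constant region of that receptor, had a log2 fold change of 1.57 that did not pass (edgeR adjusted p = 0.125).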
